A study of Mus musculus with 2 samples.

Results

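The genes described here are 10 carriers of nuclear transport, namely the importin alpha genes Kpna1, Kpna2, Kpna3, Kpna4 and Kpna6, the importin beta family genes Kpnb1, Ipo5 and Ipo7, and the exportin genes Xpo1 and Cse1l. They were found as the non-control probes whose RefSeq accession maps to these symbols, which gave 18 probes for 10 of the 20655 genes that the array names. All 18 probes were well above background on both arrays. The members were chosen by family together with the measured log2 difference of Kpna4 between these same arrays, which was already known to be high, so the values below are a description and carry no test.

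The cells were B-ALL cells, blasts of an acute lymphoblastic leukaemia of the B lineage, from C57BL mice aged 8 weeks. They were sorted from bone marrow by SoNar, a fluorescent sensor of the cytosolic NADH to NAD+ ratio that is read as a ratio of excitation at a violet and a blue wavelength. The SoNar-high group and the SoNar-low group each had 1 sample, and total RNA of each was labelled with Cy3 and hybridised to 1 Agilent mouse array. The SoNar-high sample carries the title N-myc-high and the SoNar-low sample the title N-myc-low, and neither the making of the leukaemia nor any pooling of mice is described in the labels. The comparison asks how leukaemic cells with a high and a low sensor ratio differ in expression. With 1 array per group no replicate spread and no p-value could be had, and precision is limited by that number of arrays. Each array had a scan session of its own, so session and group cannot be told apart.

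Proteins too large to diffuse through the nuclear pore are carried by transport receptors of the karyopherin family. An importin alpha reads the classical nuclear localisation signal of a cargo and binds importin beta, encoded by Kpnb1, which takes the complex through the pore. In the nucleus the GTP-bound form of the small GTPase Ran releases the cargo, and the exportin encoded by Cse1l returns importin alpha to the cytoplasm. Growing blast cells depend on this traffic for the import of ribosomal proteins, histones and transcription factors.

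Kpna4 was the member that stood apart. Its protein is an importin alpha known for carrying signalling-dependent transcription factors, among them NF-kB subunits. Kpna4 was read by 1 probe, A_52_P343690, whose processed signal was 1263 ± 126 in SoNar-high cells and 190 ± 22.2 in SoNar-low cells, where ± is the error that the scanner software gives for the spot. The processed signal is the spot brightness in linear units after subtraction of the background. The gap had the same direction but was smaller before that subtraction, with a median pixel signal of 1509 in SoNar-high cells and 282 in SoNar-low cells, 5.35-fold against 6.65-fold for the processed signal, over a local background of 26 in SoNar-high and 20 in SoNar-low. After each array was scaled to the 75th percentile of its non-control spots, the log2 difference (SoNar-high minus SoNar-low) was 2.59 ± 0.22, a 6.02-fold higher level in SoNar-high cells. The ± on a log2 difference combines the software's errors of both spots and leaves out the variation between mice, sorts and arrays.

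Kpna4 ranked 15 from the highest among 10515 genes measured on both arrays, and its probe ranked 60 among 17184 probes. A 2-fold higher level in SoNar-high cells, or more, was reached by 4.87% of those genes and 7.45% of those probes, and a 2-fold lower level by 1.68% and 1.71%. Among probes between the 25th and the 50th percentile of mean level over the arrays, where the Kpna4 probe lay, 11.3% were at least 2-fold higher. The SoNar-low signal of Kpna4 lay 4.09 times above the lowest signal called well above background on that array, 46.4, so the difference was measured on both sides and is not a bound. In bulk samples such as these, fewer cells that express a gene and less RNA per cell cannot be told apart.

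**Figure D1:**
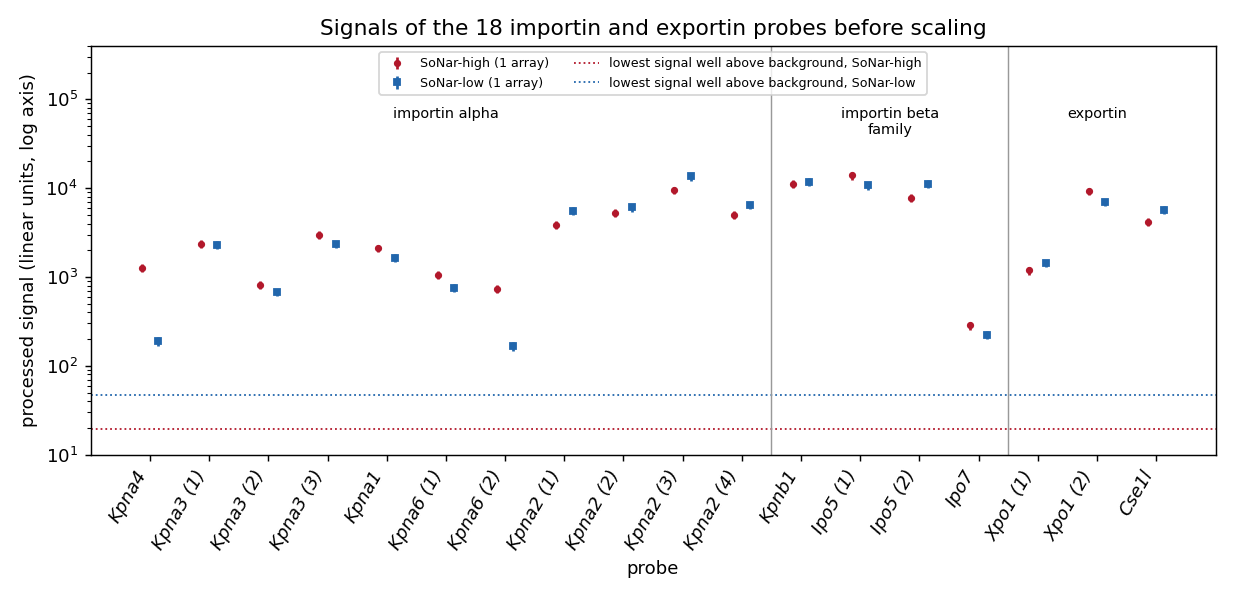
Processed signal (linear units, log axis) of each of the 18 member probes in SoNar-high cells (red circles) and the SoNar-low array (blue squares). Error bars, mostly hidden by the symbols, are the scanner software's error of the spot, and dotted lines mark each array's lowest signal well above background, 19.7 for SoNar-high and 46.4 for SoNar-low. The Kpna4 probe, at 1263 against 190, and a Kpna6 probe, at 741 against 166, have the widest gaps.

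The promoters of Kpna4 and Kpna2 are shown because they belong to the importin alpha genes at opposite ends of the comparison. They are the 250 bases before the annotated gene start, taken from RefSeq on GRCm38.p6, at chr3:69127093-69127342 for Kpna4 and chr11:106999526-106999775 for Kpna2, both on the minus strand and written 5′ to 3′ along the gene. Capitals mark the GC box GGGCGG or its reverse complement CCGCCC.
Kpna4: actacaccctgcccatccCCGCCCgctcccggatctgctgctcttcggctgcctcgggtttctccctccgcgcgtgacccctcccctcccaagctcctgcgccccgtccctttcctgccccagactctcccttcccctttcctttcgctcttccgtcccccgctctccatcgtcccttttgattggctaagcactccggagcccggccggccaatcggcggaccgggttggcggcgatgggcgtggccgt
Kpna2: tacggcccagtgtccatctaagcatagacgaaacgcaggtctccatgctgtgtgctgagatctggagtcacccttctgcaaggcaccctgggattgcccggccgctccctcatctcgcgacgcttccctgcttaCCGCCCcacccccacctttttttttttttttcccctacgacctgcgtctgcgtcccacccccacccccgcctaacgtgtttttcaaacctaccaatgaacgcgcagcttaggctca

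Each of these promoters held 1 GC box, a motif bound by SP-family factors, and their G and C content was 68.4% for Kpna4 and 57.6% for Kpna2. The E-box CACGTG, the motif read by MYC proteins, was searched because the sample titles name N-myc, and neither window held it. Both motifs were searched on both strands, and they share no overlap. Of 32851 promoter windows of the same length, 32.7% held a GC box and 6.02% an E-box. Promoters were matched for 6 of the 10 members, with 7 windows. A GC box was present for Kpna4, Kpna2, Kpnb1, Ipo5 and Xpo1, and an E-box for Ipo7. These matches describe the letters and not the binding of a factor.

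The nearest relative of Kpna4 in the family is Kpna3, and its values did not follow those of Kpna4. Kpna3 was read by 3 probes, with signals of 2353, 811 and 2971 in SoNar-high cells and, for the same probes, 2323, 674 and 2331 in SoNar-low cells. Their log2 differences were -0.13 ± 0.20, 0.12 ± 0.21 and 0.20 ± 0.20. The mean over the probes was 0.07, which is 2.52 below the log2 difference of Kpna4. Each of the 3 probes had a log2 difference within about the software error of 0.

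Kpna6 gave values that depend on the probe. Its protein is an importin alpha of the same subfamily as that of Kpna1. The probe A_55_P1980041 had a signal of 741 ± 74.2 in SoNar-high cells and 166 ± 20.5 in SoNar-low cells, a log2 difference of 2.01 ± 0.23. The other probe, A_52_P199586, had 1065 ± 107 in SoNar-high cells and 758 ± 76.9 in SoNar-low cells, a log2 difference of 0.35 ± 0.21. The gap between the probes, 1.67 on the log2 scale, is several times the software error of either. Among 2019 genes with exactly 2 measured probes the median gap was 0.43, and 3.52% had a gap at least as wide as that of Kpna6. The gene mean of 1.18 passed 2-fold through 1 of its 2 probes, A_55_P1980041. The SoNar-low signal of that probe lay 3.58 times above the lowest detected signal of that array. The probe lay in the same band of mean level as the Kpna4 probe, where 11.3% of probes were at least 2-fold higher. These 2 probes had the lowest SoNar-low signals of the 18 member probes. Probe sequences were not used here, so whether the probes read different transcripts was not tested.

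The Kpna6 pair bears on how far a single probe can be read. Kpna4 has no further probe on the array with which to compare its 2.59.

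Kpna1 had a signal of 2109 in SoNar-high cells and 1653 in SoNar-low cells from 1 probe, with a log2 difference of 0.21 ± 0.20. Its value was 2.38 below that of Kpna4.

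Kpna2, the importin alpha gene best known for high expression in dividing cells, lay on the other side. Its 4 probes had signals of 3868, 5316, 9467 and 5044 in SoNar-high cells and, in the same order, 5532, 6071, 13557 and 6400 in SoNar-low cells. All 4 were lower in SoNar-high cells, with log2 differences of -0.66, -0.34, -0.66 and -0.49. The gene mean was -0.54, or -0.37 relative to the median of all genes, which was itself -0.17. The probes of Kpna2 lay within 0.33 of each other, so that its sign did not rest on 1 probe. None of them reached 2-fold.

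**Figure D2:**
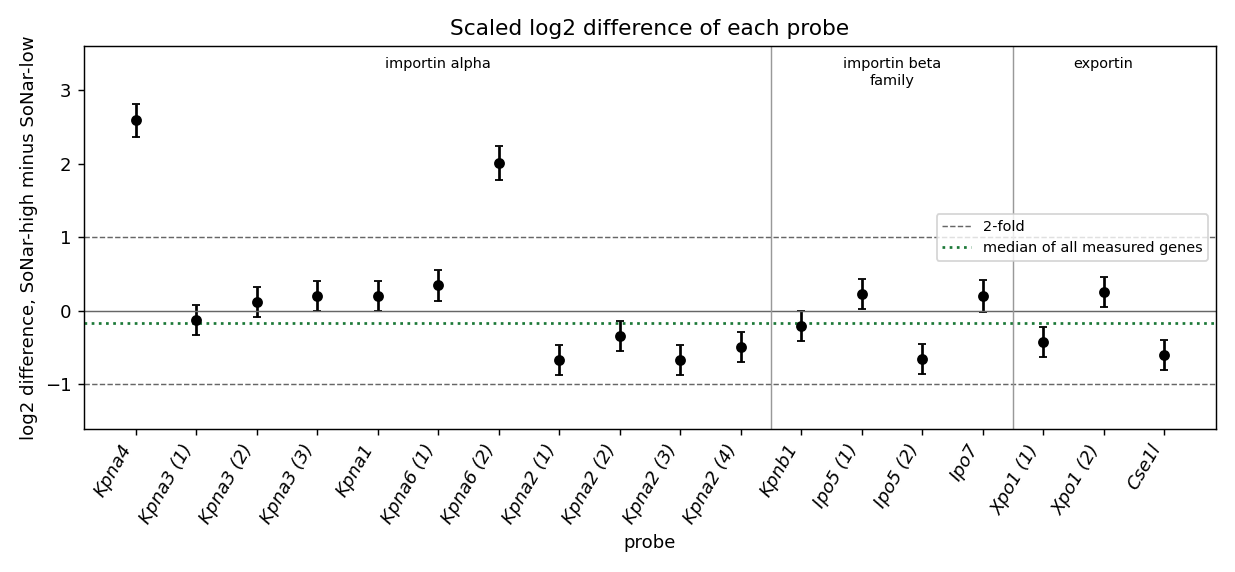
Scaled log2 difference, as SoNar-high minus SoNar-low, for each of the 18 probes, ordered by role, with error bars that combine the scanner software's errors of both spots. Dashed lines mark 2-fold and the green dotted line the median of all measured genes, -0.17. Kpna4 at 2.59 and the second Kpna6 probe at 2.01 lie above 2-fold, and the other 16 probes lie between -0.66 and 0.35.

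No gene of the importin beta family reached 2-fold. Kpnb1, the partner of all importin alpha proteins in classical import, had a signal of 11234 in SoNar-high cells and 11718 in SoNar-low cells. Its log2 difference of -0.21 ± 0.20 was -0.04 relative to the median gene. Ipo5 imports ribosomal proteins and histones, and its probes disagreed in sign. The signals were 13914 on SoNar-high and 10734 on SoNar-low for the probe A_52_P235569, with a log2 difference of 0.23, against 7803 on SoNar-high and 11124 on SoNar-low for A_55_P2058240, with one of -0.66. Their mean was -0.21. Opposite signs were present in 45.4% of the genes with 2 measured probes.

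Ipo7 imports ribosomal proteins and several signalling proteins. Its 1 probe had a signal of 285 ± 28.8 in SoNar-high cells and 224 ± 24.8 in SoNar-low cells, and a log2 difference of 0.20 ± 0.22. The SoNar-low signal of Ipo7 lay 4.83 times above the lowest detected signal of that array, and that of Kpna4 4.09 times. The log2 difference of Ipo7 was 2.38 below that of Kpna4.

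The exportins were near the median gene or below it. Xpo1 encodes the main exportin for proteins with a leucine-rich export signal. Its probes had signals of 1185 and 9203 in SoNar-high cells and, for the same probes, 1431 and 6939 in SoNar-low cells, with log2 differences of -0.42 and 0.26 and a mean of -0.08. Cse1l, the exportin that recycles importin alpha, had a signal of 4194 in SoNar-high cells and 5722 in SoNar-low cells from 1 probe. Its log2 difference of -0.59 ± 0.20 was the lowest of the 10 members in the main setting and lay 3.18 below that of Kpna4.

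Of the 10 members, 2 were at least 2-fold higher, Kpna4 and Kpna6, and 0 were at least 2-fold lower. The contrast chose the set, so nothing is read from that count beside the 4.87% and 1.68% of all genes. The median log2 difference of the members was -0.01 against -0.17 for all genes, and without Kpna4 and Kpna6 it was -0.14, with a range from -0.59 to 0.21. By role, the median was 0.21 over 5 importin alpha genes, -0.21 over 3 importin beta family genes and -0.34 over 2 exportin genes. The carriers that work with Kpna4 in import, Kpnb1 and Cse1l, had log2 differences of -0.21 and -0.59, and the median of the 9 members other than Kpna4 lay 2.67 below it.

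**Figure D3:**
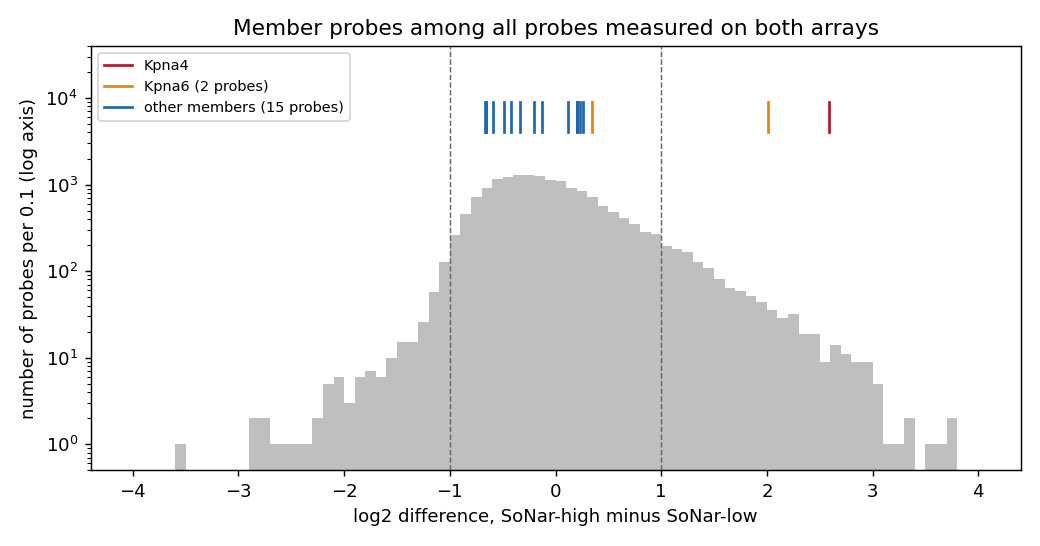
Histogram of the log2 difference, as SoNar-high minus SoNar-low, over the 17184 probes measured on both arrays, in bins of 0.1 with the number of probes on a log axis. Coloured ticks mark the 18 member probes and dashed lines mark 2-fold. The ticks of Kpna4 and the higher Kpna6 probe lie in the upper tail, and the other 16 lie between -0.66 and 0.35.

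The log2 difference of Kpna4 was 2.59 in the main setting and between 1.98 and 2.80 in the 11 alternatives, and it had the highest value of the 10 members in each. Not all of these could act on it. The filters on dim probes, outliers kept and the brightest probe left its 1 probe, and so its value, unchanged. Median scaling and the percentile over shared detected spots shift all members alike. It was 2.55 with quantile normalization, 2.69 with cyclic loess, 2.36 with normexp and 2.37 in the authors' table. Kpna6 was at least 2-fold higher in 9 of the 11. It fell short at 0.57 with median scaling and at 0.35 when the brighter probe alone was used. Median scaling shifted every log2 difference by -0.61, and relative to the median of all genes Kpna4, Kpna6, Kpna1, Kpna3 and Ipo7 lay above it and Kpna2 and Cse1l below it in all 11. Kpnb1, Ipo5 and Xpo1 lay above or below that median depending on the setting.

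**Figure D4:**
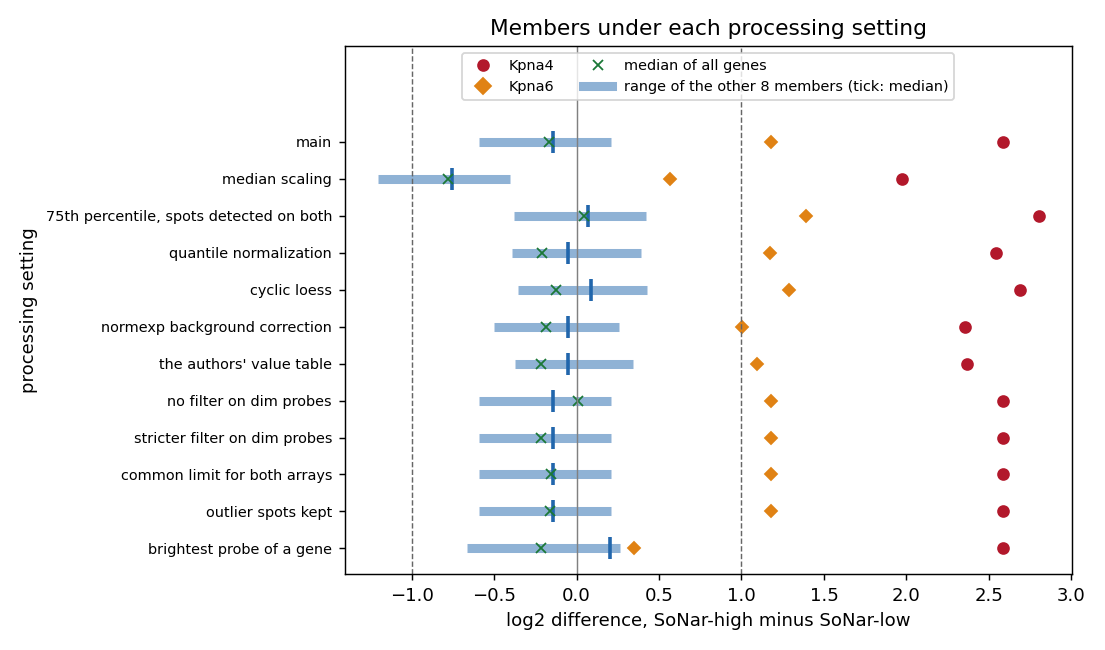
Log2 difference, as SoNar-high minus SoNar-low, for Kpna4 (circles), Kpna6 (diamonds) and the other 8 members (bar for the range, tick for the median) in the main setting and 11 alternatives, with crosses for the median of all genes. Kpna4 lies between 1.98 and 2.80 throughout, while Kpna6 drops to 0.57 with median scaling and to 0.35 with the brightest probe.

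The genes that serve the same traffic were described through 5 wider lists of 73 genes, of which 68 were measured on both arrays. Of these 68, 1 was higher by 2-fold or more and 2 were lower by as much, beside 4.87% and 1.68% of all genes. The counts past 2-fold in each list below are to be read beside the same shares. The median log2 difference of the 68 was -0.37 against -0.17 for all genes. That gap depended on the processing. It was -0.20 in the main setting and between -0.28 and -0.04 in the 11 alternatives. With quantile normalization it was -0.055, with cyclic loess -0.043, with normexp -0.092 and in the authors' table -0.055. Of the 68, 53 had a negative log2 difference and 15 a positive one. Most of all genes were negative too in this setting, where Xpo1, at -0.08, ranked 4483 from the highest of 10515. Counts of negative genes are therefore to be read beside the median of all genes. Above that median lay 4 of 9 other importins and transportins, 4 of 5 other exportins and 2 of 10 Ran cycle genes. So did 10 of 28 nucleoporin genes and 4 of 16 mRNA export genes.

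Among 9 measured importins and transportins outside the members, 0 were higher by 2-fold or more and 1 was lower by as much, with a list median of -0.25. That gene was Ipo8, an importin related to Ipo7, with a signal of 678 in SoNar-high cells and 1278 in SoNar-low cells and a log2 difference of -1.06. With quantile normalization Ipo8 was at -0.97, with cyclic loess -0.87, with normexp -0.87 and in the authors' table -0.91, all short of 2-fold. It was at -0.85 with the percentile over shared detected spots and at -1.67 with median scaling. In the main setting Tnpo3, which imports splicing factors of the SR family, followed at -0.65, and the highest were Ipo4 at 0.44 and Tnpo2 at 0.19. Kpna7, an importin alpha gene best known from oocytes and early embryos, was not well above background on either array. Ranbp6 was so in SoNar-high cells alone, at a level too low to give a bound, and the same held for the exportin gene Ranbp17.

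Of 5 other exportin genes measured, 0 reached 2-fold in either direction, and their median was -0.04. Xpo6, the exportin of actin, was highest at 0.45 and Xpo5, which exports microRNA precursors, next at 0.26. Xpo4 was lowest at -0.69 and Xpo7 stood at -0.15.

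The Ran cycle, which sets the direction of transport, had the lowest list median, -0.50 over 10 genes, with 9 of them negative and 0 past 2-fold. Ran itself had a log2 difference of -0.48, the mean of 2 probes. Rcc1, the exchange factor that loads Ran with GTP, was at -0.60, and Rangap1, which activates its GTP hydrolysis, at -0.24. Ranbp3, a cofactor of Xpo1, was at -0.86. Rangrf at 0.50 and Nutf2, which carries Ran into the nucleus, at -0.08 were highest, and the 3 probes of Rangrf ran from -0.35 to 1.86.

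Of 28 measured nucleoporin genes, which encode the pore itself, 22 were negative and the median was -0.37. Nup214, a pore component on the cytoplasmic side, was the 1 at least 2-fold higher, with a signal of 249 in SoNar-high cells and 70.8 in SoNar-low cells and a log2 difference of 1.67 from 1 probe. With normexp background correction its log2 difference was 0.85, under 2-fold, and under the stricter filter on dim signal it was not measured. Nup93, a scaffold component of the pore, was the 1 at least 2-fold lower, at -1.02 from 1 of its 2 probes, with 2390 in SoNar-high cells and 4396 in SoNar-low cells. Its other probe was dim, at 31.3 in SoNar-high cells and, below the limit of detection, 10.6 in SoNar-low cells, and pointed the other way. With quantile normalization Nup93 was at -0.82, with cyclic loess -0.79, with normexp -0.97 and in the authors' table -0.79, all short of 2-fold. It was at -0.81 with the percentile over shared detected spots and at -1.64 with median scaling. In the main setting Nup205 followed at -0.97, and the second highest was Seh1l at 0.27. For mRNA export, which uses a route apart from the karyopherins, 14 of 16 genes were negative, 0 reached 2-fold and the median was -0.40, with Alyref at -0.73, Thoc7 at -0.62, Thoc5 at 0.19 and Thoc3 at 0.36.

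**Figure D5:**
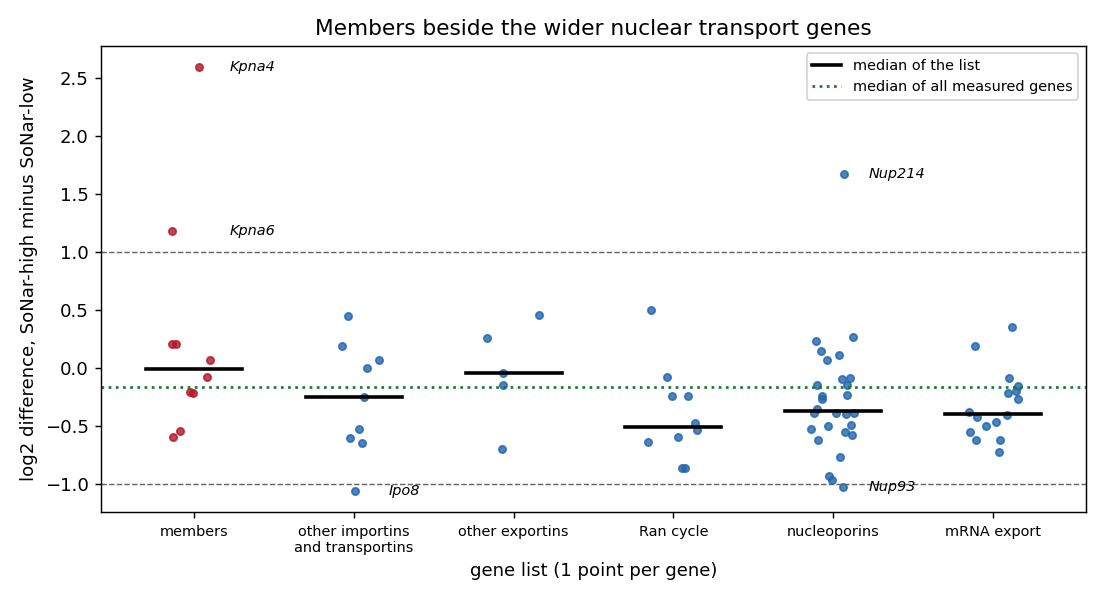
Log2 difference, as SoNar-high minus SoNar-low, for each gene measured on both arrays in the 10 members (red) and in 5 wider lists of nuclear transport genes (blue), with black bars for list medians and a green dotted line for the median of all genes, -0.17. Genes past 2-fold are named: Kpna4, Kpna6 and Nup214 above, Ipo8 and Nup93 below.

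The genes outside the members with a log2 difference nearest to that of Kpna4 were Cyp2d11 at 2.62, 4930474G06Rik at 2.64 and Trp63 at 2.50, each from 1 probe. The likeness is 1 difference between 2 arrays and nothing more is read from it.

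Some facts of the whole arrays bear on these values. The share of the 43020 non-control spots called well above background was 72.9% for SoNar-high and 44.8% for SoNar-low. Of 17 B-lineage genes 13 were measured on both arrays, Cd79a, Cd79b, Pax5 and Ebf1 among them, with a median log2 difference of -0.26 and a range from -0.92 for Ebf1 to 1.16 for Cd22, the 1 gene past 2-fold. Igll1, Rag1 and Rag2 were detected on neither array and Vpreb2 in SoNar-high cells alone. Beside Kpna4, the marker lists of other cells had medians above that of all genes, with a log2 difference of 0.48 over 11 measured of 15 neutrophil genes, 0.48 over 6 of 13 erythroid genes, 0.94 over 4 of 10 T cell genes, 1.12 over 3 of 8 natural killer genes, 0.82 over 3 of 10 monocyte and macrophage genes and 0.69 over 5 of 10 stromal and endothelial genes. Among their defining markers Hba-a1 (1.88) for erythroid cells, Cd3e (1.26) and Cd4 (1.72) for T cells, Prf1 (1.22) and Gzma (1.12) for natural killer cells and Csf1r (1.25) for monocytes and macrophages were measured on both arrays and higher in SoNar-high cells. Klf1, Gata1, Cd3g, Ncr1, Cd14 and Lyz2 were detected in SoNar-high cells alone, and Cd3d on neither array. Over all 20655 named genes, 5453 were detected on SoNar-high alone, where the lowest detected signal was 19.7 against 46.4 on SoNar-low. Klf1, Gata1, Cd3g and Ncr1 lay too low to give a bound. Cd14 was nearly level, at 57.0 in SoNar-high cells and 48.5 in SoNar-low cells. Lyz2 was at 88.1 in SoNar-high cells and, below the limit of detection, 12.1 in SoNar-low cells. The lowest detected level of SoNar-low gives Lyz2 a bound of at least 1.72-fold higher in SoNar-high cells. The part of such other cells in the values of Kpna4 and Kpna6 was not tested.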

How the data were processed

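The deposited scanner files give each spot's intensity in linear units. Agilent Feature Extraction 11.0.1.1 had removed the background and spatial trend of each array, per the file headers. The submitters' processing notes name version 9.1. The software's error estimate and quality flags of each spot come from the same files. The authors also deposited a table of log2 values, whose columns have the same median, 5.90, and correlated across probes with log2 signal at r = 0.995 for SoNar-high and 0.994 for SoNar-low, which settles its scale and direction but not its further steps. It served as an alternative.

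In the main setting the processed signal was put on a log2 scale and scaled to the 75th percentile of the non-control spots on its array. The 685 spots marked as outliers were removed, none of them of a member. Of 39085 probes 27109 were named through RefSeq accessions (GRCm38.p6). Values of a gene were averaged over its probes well above background on both arrays. A 2-fold difference means an absolute log2 difference of at least 1, and higher or lower alone states the direction. All 10 members are named, with up to 2 highest and 2 lowest genes of each wider list, each of its genes past 2-fold, and the 3 genes nearest to Kpna4. Some genes of these lists are not reported here. Members and lists were chosen with earlier results of these data known. The scripts were tested on simulated data. Alternatives were median scaling, a percentile over shared detected spots, quantile normalization, cyclic loess, normexp with an offset of 50 on median pixel signals, the authors' table, 3 filters on dim probes, outliers kept, and the brightest probe. Python 3.11.15, numpy 2.4.6, pandas 2.3.3, R 4.3.3 and limma 3.58.1 were used.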

Additional observations from a re-analysis of the deposited data

How the results depend on the processing

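No paired analysis was possible because there was a single array per condition, which also means that none could be left out. A value counted as moved when it changed by more than 0.15, the median SD of the log2 difference between repeat spots of 193 probes. Against 2.59, the log2 difference of Kpna4 was 1.98 with median scaling, 2.80 with the percentile over shared detected spots, 2.36 with normexp and 2.37 in the authors' table. Smaller changes came with quantile normalization, at 2.55, and cyclic loess, at 2.69. The remaining alternatives could not change it, since its 1 probe was kept in each. The lead of Kpna4 over the median of the other members, 2.67, was 2.38 with normexp, 2.37 in the authors' table and 2.38 with the brightest probe. The members at least 2-fold higher were 1 in place of 2 with median scaling and with the brightest probe, and those at least 2-fold lower were 2 in place of 0 with median scaling, which shifts all values by construction. The members' median minus that of all genes, 0.16, was -0.015 with no filter on dim probes, where the median of all genes changed and the members' did not, and 0.42 with the brightest probe. Without a filter Nup93 was at 0.20 in place of -1.02, since its dim second probe then enters. The count of all genes at least 2-fold higher went from 512 to 139 with median scaling, 262 with normexp, 337 with the stricter filter, 806 with the percentile over shared detected spots and 2775 with no filter. That of genes at least 2-fold lower went from 177 to 3306, 60, 127, 67 and 1751, and was 350 with quantile normalization, 300 with cyclic loess, 430 in the authors' table and 114 with the common limit. Higher genes were 74.3% of those past 2-fold in the main setting, against 4.03% with median scaling, 52.4% with quantile normalization, 60.7% with cyclic loess, 45.4% in the authors' table (358 higher genes), where lower genes were the majority, 61.3% with no filter, 81.4% with normexp and 92.3% with the percentile over shared detected spots.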
